A study of Mus musculus with 4 samples.

Results

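The proteasome genes of sorted mouse T helper 17 (Th17) cells were compared between wild-type and miR-155 knockout cells. Members were taken by name: every non-control probe on the arrays whose gene name began with Psma, Psmb, Psmc, Psmd, Psme, Psmf or Psmg. That gave 62 probes of 55681 and 49 gene names. Of these names 48 belong to proteasome subunits, activators, inhibitors or assembly factors, and 1, Psmc3ip, is a meiotic recombination factor that shares only the prefix. A gene was tested where a probe was well above background by the scanner software's own call, and 47 of the 49 genes were tested, among 19151 tested genes in all. Psma8, the alpha subunit of testis, and Psmb11, the catalytic subunit of thymic cortical epithelium, were well above background on 0 of 4 arrays.

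Total RNA was hybridised to 4 one-colour arrays, 2 from wild-type (miR-155+/+) and 2 from miR-155-/- cells. All samples, the controls included, were mouse CD4+ T cells cultured with antibodies to CD3e and CD28 plus TGF-beta and IL-6, the cytokines that direct Th17 differentiation, and all carried a red fluorescent reporter (RFP) of IL-17F on which CD4+ RFP+ cells were sorted. The replicates are biological per the design text. Which animal or culture each array came from is not in the labels, so the p-values rest on the spread among these 4 samples alone, and some of that spread may be technical. The labels give no strain, sex or age, and 0 probes were named for miR-155 or its host gene, so the deleted locus itself was not measured here. All 9 pan T cell markers, Cd3e and Cd4 among them, were in the brightest 25% of tested genes.

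The proteasome degrades proteins tagged with ubiquitin. Its 20S core is a barrel of alpha rings, which gate the entrance, and beta rings, which hold the proteolytic sites of Psmb5, Psmb6 and Psmb7, and a 19S cap of ATPases and non-ATPase subunits recognises, unfolds and feeds in the substrate. In lymphocytes, and in other cells under interferon-gamma, these catalytic subunits are replaced by Psmb8 (LMP7), Psmb9 (LMP2) and Psmb10 (MECL-1) to form the immunoproteasome, and the cap can be exchanged for the PA28 ring of Psme1 and Psme2. The immunoproteasome favours peptides that fit major histocompatibility complex (MHC) class I molecules, and Psmb8 and Psmb9 lie inside the MHC beside the peptide transporters Tap1 and Tap2.

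Because Psmb8 and Psmb5 replace each other at the same position of the beta ring and descend from a common gene, the array's power to tell them apart rests on the probe letters. Below are the Psmb8 probe and the dimmer of 2 Psmb5 probes, which cover the same stretch. Capitals mark the bases at which the 2 probes are identical, in the alignment without gaps.
Psmb8 probe: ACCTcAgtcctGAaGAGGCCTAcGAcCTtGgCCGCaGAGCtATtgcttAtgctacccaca
Psmb5 second probe: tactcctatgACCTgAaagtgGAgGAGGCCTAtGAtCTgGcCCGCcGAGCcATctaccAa
Over the 50 aligned bases 31 were identical (62%), and the longest run in common was 8 bases. No run longer than 10 bases was shared by any of the 5 inducible genes' probes with a probe of another member.

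Regulatory DNA of the inducible and the constitutive genes is shown from RefSeq (GRCm38.p6), read 5′ to 3′ on the gene's strand and ending just before the annotated start. The immunoproteasome gene Psmb9 and the transporter gene Tap1 are transcribed away from each other, and only 225 bases separate their starts (chr17:34187331-34187555, plus strand, the Tap1 direction). A CCAAT letter match is in capitals.
Psmb9 to Tap1: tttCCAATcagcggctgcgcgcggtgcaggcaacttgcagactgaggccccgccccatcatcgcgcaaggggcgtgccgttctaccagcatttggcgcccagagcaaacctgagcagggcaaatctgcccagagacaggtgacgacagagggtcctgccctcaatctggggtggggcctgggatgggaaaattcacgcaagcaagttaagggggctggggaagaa
Psmb8 was the only inducible gene of the 5 with a match to TTCNNNGAA, the letters of the gamma-activated site of interferon-gamma signalling (chr17:34197945-34198194, plus strand, the match in capitals).
Psmb8: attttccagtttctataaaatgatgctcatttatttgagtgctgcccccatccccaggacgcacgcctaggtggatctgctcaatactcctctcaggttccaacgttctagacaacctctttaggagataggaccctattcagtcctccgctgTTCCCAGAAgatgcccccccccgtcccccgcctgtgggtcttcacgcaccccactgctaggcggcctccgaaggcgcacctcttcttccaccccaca
The constitutive catalytic genes Psmb5 (chr14:54617996-54618245, minus strand) and Psmb6 (chr11:70525107-70525356, plus strand) held TGACNNNGC, the core letters of the antioxidant response element bound by the NRF factors that drive proteasome genes (capitals).
Psmb5: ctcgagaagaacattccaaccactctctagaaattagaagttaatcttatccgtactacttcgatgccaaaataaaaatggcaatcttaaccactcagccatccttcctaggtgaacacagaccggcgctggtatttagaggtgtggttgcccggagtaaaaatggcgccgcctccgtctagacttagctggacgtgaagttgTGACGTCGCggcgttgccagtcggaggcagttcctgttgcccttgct
Psmb6: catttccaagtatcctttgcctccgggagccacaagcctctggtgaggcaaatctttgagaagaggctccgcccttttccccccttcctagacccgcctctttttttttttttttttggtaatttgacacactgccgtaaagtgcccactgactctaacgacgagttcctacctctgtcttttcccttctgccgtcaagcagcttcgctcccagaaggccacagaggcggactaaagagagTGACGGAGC

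Motifs were searched on both strands in the 250 bases before the start, in 41 member genes with a RefSeq entry and in 32851 promoters in all. TTCNNNGAA was found in 7.02% of all promoters and in 2 of 41 members, Psmb8 and the assembly chaperone Psmg1. TGACNNNGC was found in 10.2% of all promoters and in 5 of 41 members, of which 4 were constitutive subunits (Psmb5, Psmb6, Psmc6 and Psmd12) and the fifth was Psmd9. The interferon-stimulated response element (GAAA, any 2 bases, GAAA) was in 2.98% of all promoters, in 0 of the 5 inducible genes and in 3 of 41 members (Psmb3, Psmd4 and Psmd9). A letter match is a description of the window and not a binding site, and the lack of a match says only that those letters are not in this window.

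Values below are log2 processed signal minus the array's 75th percentile, and differences are knockout minus wild type on that log2 scale, from limma over all tested genes with Benjamini-Hochberg adjustment. No proteasome gene passed an adjusted p of 0.05. The same held for all 19151 genes (0%), of which the smallest adjusted p was 0.254. Calls with 1 array left out are not counted, since 1 array then stands alone for its genotype. Without knockout array 2 or wild-type array 1, that lone array is knockout array 1 or wild-type array 2. On these arrays 156 and 70 probes in corner blocks were far dimmer than on every other array. At an unadjusted p under 0.05, 0 of 47 members were higher in knockout cells against 7.23% of all tested genes, and 1 of 47, Psmg4, was lower against 4.13%. That count of lower members was 0 without wild-type array 2. Knockout values lay wholly above wild-type values for 7 members (all genes: 25.4%) and wholly below for 5 (all genes: 22.4%).

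Proteasome mRNA differed little between the genotypes. The median size of the difference over the 47 members was 0.09, against 0.19 over all tested genes and 0.12 over the brightest 25% of them, in which 38 of the 47 members lay. Values of 42 members (89.4%) stayed within 0.25 log2 units of 0, as did 61.6% of all tested genes and 80.6% of the brightest 25%. The 95% interval of the difference lay within a 2-fold change either way for 46 of 47 members, Psmd13 being the exception, compared with 77.2% of all genes and 94.3% of the brightest 25%. Higher values in knockout cells were found for 25 members and lower ones for 22, with a median of 0.02 that equalled the median of all genes at 2 decimals. In bulk RNA, fewer cells with a transcript and less of it per cell cannot be told apart.

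**Figure D1:**
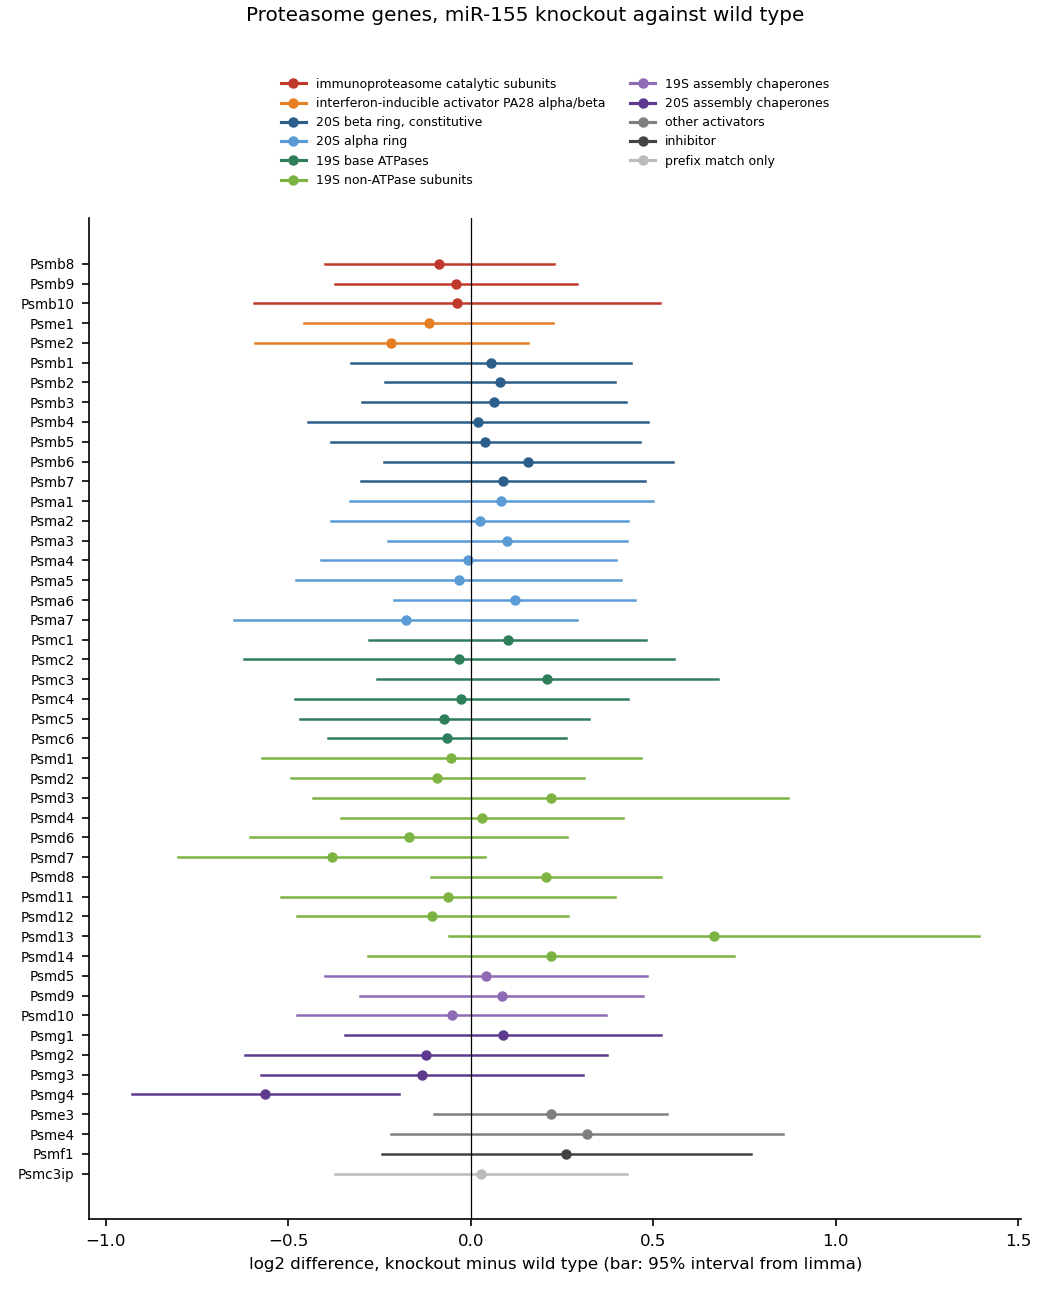
Log2 difference of each of the 47 tested genes, knockout minus wild type (point), with its 95% interval from limma (bar), 2 arrays per genotype, coloured by role in the proteasome. The 5 immunoproteasome genes at the top lie between -0.22 and -0.04, all 7 constitutive beta subunits lie above 0, and only the interval of Psmg4 does not reach 0.

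**Figure D2:**
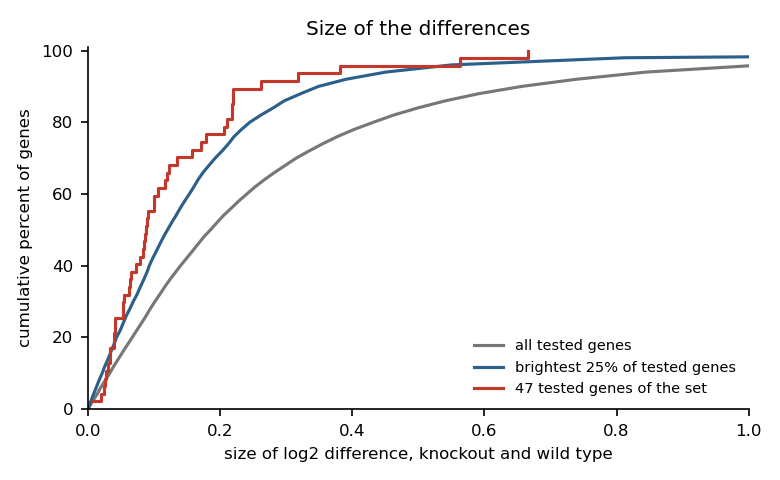
Cumulative percent of genes (vertical axis) by the size of the log2 difference between genotypes (horizontal axis) for all tested genes, the brightest 25% of them and the 47 tested genes of the set. The curve of the set is above that of all tested genes over most of its course, with a median size of 0.09 against 0.19.

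All 5 immunoproteasome genes had lower values in knockout than in wild-type cells, by small amounts that none of their tests separated from 0. Their median difference was -0.09 and their range -0.22 to -0.04. The median of all tested genes was 0.02, and 47.6% of them had a difference below 0. All 5 immunoproteasome genes lay among the 4788 brightest tested genes, where the median was -0.02 and 2614 genes were below 0. The median of the 5 was -0.17 without wild-type array 1 and -0.16 without knockout array 1. Psmb8, Psme1 and Psme2 had knockout values wholly below wild-type values, and for Psmb9 and Psmb10 the groups overlapped. Knockout values also lay wholly below for 22.4% of all tested genes and for 1287 of the 4788 brightest. All 5 were below 0 under median scaling, quantile scaling and normexp background correction as well, 4 of 5 after knockout array 1 was corrected for its uneven surface, 4 of 5 without knockout array 2 and 3 of 5 without wild-type array 2.

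Psmb8, the chymotrypsin-like immunosubunit (probe at mm9 chr17:34337771-34337830), read 5.999 and 5.97 in wild-type cells and 5.90 and 5.89 in knockout cells. Both knockout arrays were below both wild-type arrays, and replicates of each genotype were closer together than the genotypes were. The difference was -0.09 (SE 0.12, 95% interval -0.40 to 0.23, n = 2 per genotype, limma adjusted p = 0.772). Changes of up to 0.40 log2 units downward and 0.23 upward thus lie within the error.

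Psmb9, which holds the caspase-like position of the immunoproteasome (chr17:34319174-34319233), read 6.24 and 6.36 in wild type and 6.26 and 6.27 in knockout cells. The knockout values fell between the wild-type values. Its difference was -0.04 (SE 0.12, limma adjusted p = 0.903), and it was 0.02 without wild-type array 2. A second Psmb9 probe gave 0.0004.

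Psmb10, the trypsin-like immunosubunit (chr8:108459677-108459736), read 5.62 and 6.04 in wild type and 5.92 and 5.66 in knockout cells. Replicates differed more from each other than the genotypes did, with an SD of 0.29 in wild type and 0.18 in knockout. The difference of -0.04 (SE 0.20, limma adjusted p = 0.947) turned to 0.17 without wild-type array 2 and to 0.09 without knockout array 2.

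The PA28 ring opens the gate of the 20S core without ATP. Psme1, its alpha subunit (chr14:56200194-56200253), read 6.07 and 6.18 in wild type and 6.06 and 5.96 in knockout cells, a difference of -0.12 (SE 0.12, 95% interval -0.46 to 0.23, limma adjusted p = 0.717). The groups did not overlap, but wild-type array 1 and knockout array 1 were nearly level. This probe was printed at 10 spots, of which 9 or 10 were used per array, and the SD among spots of 1 array was 0.03 to 0.06, so spot noise was smaller than the spread between replicate arrays.

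Psme2, the beta subunit of PA28 (chr14:56206296-56206355), read 6.88 and 7.06 in wild type and 6.70 and 6.81 in knockout cells. It had the lowest difference of the 5, -0.22 (SE 0.14, 95% interval -0.59 to 0.16, limma adjusted p = 0.559). On knockout array 1 the scanner software's fitted surface at this spot was 0.61, against 0.97 to 0.99 on the other arrays. Dividing that array by its surface raised the Psme2 value there by 0.68 and turned the difference to 0.12. A second Psme2 probe, on which the surfaces were 1.03 to 1.06, read 5.01 and 5.27 in wild type and 5.08 and 4.95 in knockout cells, a difference of -0.12 with overlapping groups. The other probe of this name, which the file describes as a pseudogene of the subunit, gave -0.09.

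Constitutive counterparts of the inducible genes had values on the other side of 0. Psmb5, the chymotrypsin-like subunit that Psmb8 replaces, read 6.55 and 6.82 in wild type and 6.78 and 6.67 in knockout cells (difference 0.04, SE 0.15, limma adjusted p = 0.927). Psmb6, the caspase-like subunit that Psmb9 replaces, read 5.90 and 6.09 against 6.24 and 6.07 (difference 0.16, SE 0.15, limma adjusted p = 0.675). Psmb7, the trypsin-like subunit that Psmb10 replaces, read 3.17 and 3.34 against 3.43 and 3.26 (difference 0.09, SE 0.14, limma adjusted p = 0.811). In each of the 3 genes the genotypes overlapped, with wild-type array 1 the lowest of the 4 arrays. Psme3, which forms the nuclear PA28 gamma ring, read 1.57 and 1.62 in wild type and 1.84 and 1.79 in knockout cells, without overlap (difference 0.22, SE 0.12, 95% interval -0.10 to 0.54, limma adjusted p = 0.519).

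**Figure D3:**
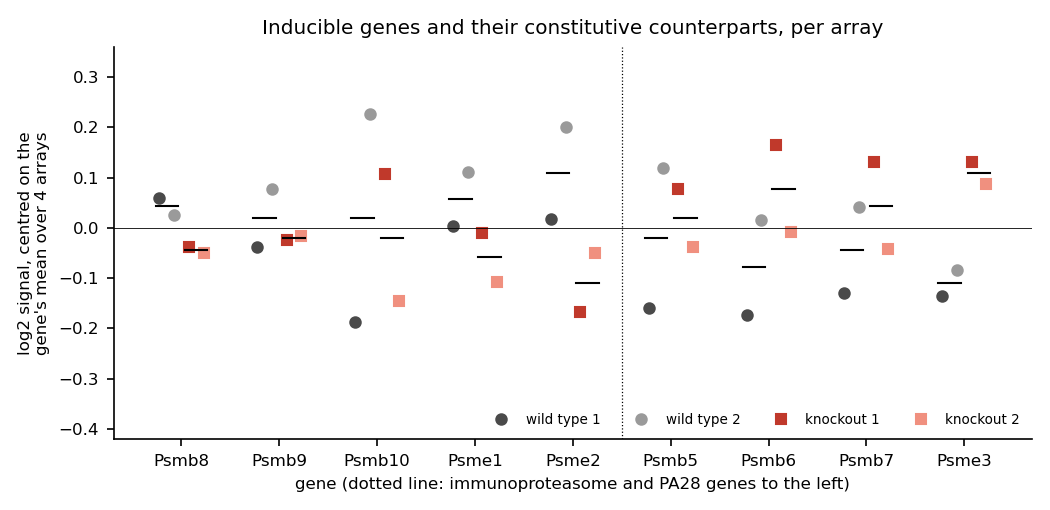
Log2 signal of each array centred on the gene's mean over 4 arrays (vertical axis) for the 5 inducible genes and 4 constitutive counterparts (horizontal axis); circles are wild type, squares knockout, and bars group means. Knockout squares lie below both wild-type circles for Psmb8, Psme1 and Psme2 and above them for Psme3, and the Psmb10 arrays are the most spread of the inducible genes.

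Each inducible gene was set against its counterpart within the same array, which removes any constant scaling of an array. Psmb8 minus Psmb5 was -0.13 (95% interval from the pooled SD -0.83 to 0.58), Psmb9 minus Psmb6 was -0.20 (-0.62 to 0.22), and Psmb10 minus Psmb7 was -0.13 (-0.68 to 0.43). Psme1 minus Psme3 was -0.34 (-0.50 to -0.17) and Psme2 minus Psme3 was -0.44 (-0.88 to 0.01), both with all knockout arrays below all wild-type arrays. Psme1 minus Psme2, the 2 partners of PA28, was 0.10 (-0.39 to 0.59). After the surface correction of knockout array 1, Psme2 minus Psme3 was -0.03 with overlapping groups, Psme1 minus Psme2 turned to -0.27, and Psmb8 minus Psmb5 was -0.20. Psme1 minus Psme3 was then -0.30, still without overlap. This correction of the pairs was chosen after the values were seen. With 2 arrays a side the 2-sided exact permutation test cannot go below p = 0.333, and all 6 pairs had an adjusted exact p of 0.667. The intervals of the 3 catalytic pairs reach to either side of 0, so an exchange of catalytic subunits at the mRNA level was not detectable with these arrays.

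Averaged per array, the 5 inducible genes (each gene centred on its own mean) were at -0.03 and 0.13 in wild type and -0.03 and -0.07 in knockout cells. The 31 constitutive subunits were at -0.10 and 0.06 in wild type and 0.08 and -0.04 in knockout cells. Inducible minus constitutive was 0.07 on both wild-type arrays and -0.10 and -0.04 on the knockout arrays, so the genotypes did not overlap. The knockout minus wild-type value of this contrast was -0.14, with a pooled SD of 0.03 between replicates, and it was -0.08 after the surface correction of knockout array 1. It was -0.11 without Psme2 and -0.12 with its second probe, both chosen after the values were seen. No p is given, since the members were chosen with results known.

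**Figure D4:**
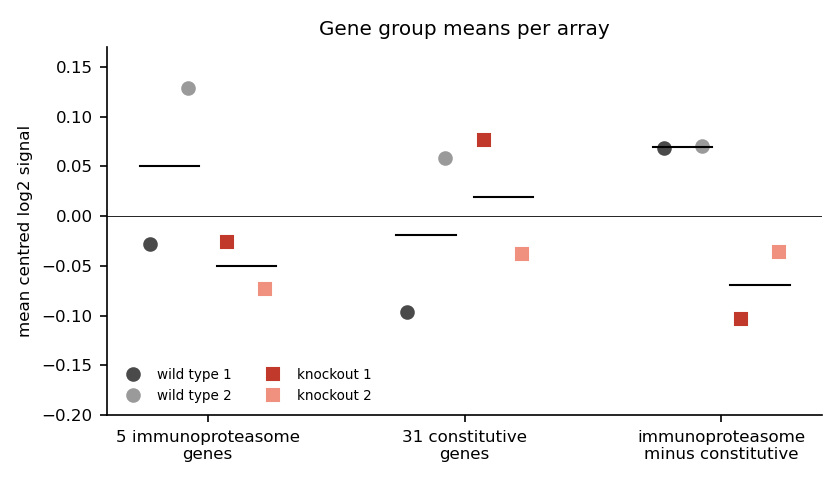
Mean centred log2 signal per array (vertical axis) of the 5 immunoproteasome genes, the 31 constitutive genes and the first minus the second; circles are wild type, squares knockout, bars group means. The difference is 0.07 on both wild-type arrays and -0.10 and -0.04 on the knockout arrays.

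Among the 31 constitutive subunits of core and cap, the median difference was 0.03, with 18 values above and 13 below 0 and a range of -0.38 to 0.67. Scaling to the array median in place of the 75th percentile moved this median to -0.13, and that scaling also moved the median of all tested genes to -0.14. The sign of this median turned to -0.06 without wild-type array 1 and to -0.03 without knockout array 1, and the median was 0.10 without wild-type array 2 and 0.11 without knockout array 2. It was -0.01 after the surface correction of knockout array 1. Knockout values lay wholly above wild type for 5 of the 31 (all genes: 25.4%) and wholly below for 1 (all genes: 22.4%). All 31 were in the brightest 25% of tested genes, where 1003 of 4788 genes lay wholly above and 1287 wholly below.

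All 7 constitutive beta subunits had differences above 0, from 0.02 for Psmb4, a structural subunit without a catalytic site, to 0.16 for Psmb6. Of all tested genes, 52.4% were above 0. All 7 subunits lay among the 4788 brightest tested genes, of which 2174 were above 0. Psmb4 read 6.41 and 6.57 in wild type and 6.67 and 6.35 in knockout cells, with overlap (SE 0.17, limma adjusted p = 0.967). All 7 turned below 0 under median scaling, with Psmb6 the nearest to 0 at -0.003 and Psmb4 at -0.14, and this is the shift of all genes given above. Only Psmb2 had groups that did not overlap: it read 2.74 and 2.78 in wild type and 2.85 and 2.84 in knockout cells (difference 0.08, SE 0.12, limma adjusted p = 0.791). On knockout array 1 the fitted surface at the Psmb2 spot was 1.11, against 0.99 to 1.03 on the other arrays. Dividing that array by its surface lowered its Psmb2 value to 2.66, below both wild-type values, so the groups then overlapped.

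The 7 tested alpha subunits, which form the outer rings, ranged from -0.18 to 0.12 with a median of 0.02. Psma7 had the lowest value: it read 6.02 and 6.26 in wild type and 6.10 and 5.82 in knockout cells, with overlap (SE 0.17, limma adjusted p = 0.686). At the other end, Psma6 read 4.45 and 4.51 in wild type and 4.65 and 4.55 in knockout cells, without overlap (difference 0.12, SE 0.12, limma adjusted p = 0.699). Psma6 turned to -0.04 under median scaling.

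In the 19S base, the ring of 6 ATPases that unfolds substrates, 2 differences were above and 4 below 0 and all groups overlapped. Psmc3 was highest, at 6.22 and 6.55 in wild type and 6.67 and 6.52 in knockout cells (difference 0.21, SE 0.17, limma adjusted p = 0.638), and its second probe gave 0.10. Psmc5 was lowest, at 4.13 and 4.35 in wild type and 4.24 and 4.10 in knockout cells (difference -0.07, SE 0.15, limma adjusted p = 0.848).

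The non-ATPase subunits of the cap, 11 genes that include the ubiquitin receptor Psmd4 and the deubiquitinase Psmd14, were the most spread, from -0.38 to 0.67, with a median of -0.05. Psmd13, a lid subunit (chr7:148084248-148084307), read 2.64 and 2.99 in wild type and 3.18 and 3.78 in knockout cells. The groups did not overlap, but knockout array 2 stood well above knockout array 1. The difference was 0.67, a 1.59-fold higher level (SE 0.27, 95% interval -0.06 to 1.39, limma adjusted p = 0.455), and it was 0.37 without knockout array 2.

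Psmd7, a partner of Psmd14 in the lid (chr8:110104402-110104461), read 3.54 and 3.82 in wild type and 3.34 and 3.25 in knockout cells, without overlap. Its difference was -0.38 (SE 0.15, 95% interval -0.80 to 0.04, limma adjusted p = 0.459). The Psmd7 probe was the 1 member probe in 2 corner blocks of the array where 156 probes on knockout array 1 and 70 on wild-type array 2 were more than 3 log2 units below every other array. The Psmd7 values on these 2 arrays were not that low.

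Psmd3, a lid subunit, was level on 3 arrays (5.93 and 5.77 in wild type, 5.78 on knockout array 1) and higher on knockout array 2 at 6.36. Its difference was 0.22 (SE 0.24, limma adjusted p = 0.720), and it was -0.07 without that array. Psmd8, also of the lid, was even between replicates in the processed signal, where the other arrays but not knockout array 1 had been divided by their surface. It read 4.29 and 4.31 in wild type against 4.50 and 4.52 in knockout cells, without overlap (difference 0.21, SE 0.12, 95% interval -0.11 to 0.52, limma adjusted p = 0.531). On knockout array 1 the fitted surface at this spot was 1.19, against 1.04 to 1.09 on the other arrays. Dividing that array by its surface lowered its Psmd8 value to 4.22, below both wild-type values, so the groups then overlapped.

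**Figure D5:**
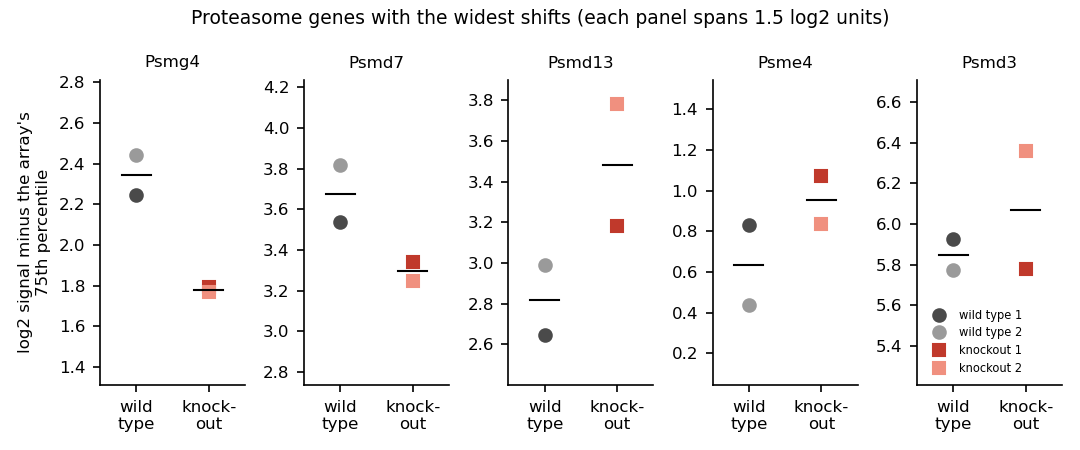
Log2 signal minus the array's 75th percentile (vertical axis, each panel spanning 1.5 log2 units) for Psmg4, Psmd7, Psmd13, Psme4 and Psmd3; circles are the 2 wild-type arrays, squares the 2 knockout arrays, bars group means. Psmg4 is at 1.79 and 1.77 in knockout cells, below 2.24 and 2.44, while in the Psmd13 and Psmd3 panels knockout array 2 stands above knockout array 1.

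Assembly factors held the 1 member that passed an unadjusted threshold. Psmg4 is the small chaperone that pairs with Psmg3 to build the alpha ring (chr13:34269918-34269977). It read 2.24 and 2.44 in wild type and 1.79 and 1.77 in knockout cells, so both knockout arrays were lower and close to each other. The difference was -0.56, a 1.48-fold lower level (SE 0.13, 95% interval -0.93 to -0.20), with an unadjusted p of 0.012 and a limma adjusted p of 0.337. Without wild-type array 2 it was -0.46.

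Psmg3, its partner, read 2.44 and 2.69 in wild type and 2.54 and 2.32 in knockout cells, with overlap (difference -0.13, SE 0.16, limma adjusted p = 0.747). Of the second chaperone pair, Psmg1 read 4.56 and 4.82 in wild type and 4.87 and 4.69 in knockout cells (difference 0.09, SE 0.16, limma adjusted p = 0.828), with a second probe at -0.05, and Psmg2 one of -0.12 (SE 0.18, limma adjusted p = 0.793). The 3 chaperones of the 19S base, Psmd5, Psmd9 and Psmd10, lay between -0.05 and 0.08 with overlapping groups. Psmd9, the highest of them, read 1.06 and 1.25 in wild type and 1.31 and 1.16 in knockout cells (difference 0.08, SE 0.14, limma adjusted p = 0.820), and its second probe gave -0.06. Psmd10 (gankyrin), the lowest, read 2.10 and 1.91 in wild type and 2.07 and 1.84 in knockout cells (difference -0.05, SE 0.16, limma adjusted p = 0.903).

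Alternative regulators of the core had higher values in knockout cells. Psme4 (PA200), a nuclear activator linked to histone turnover, read 0.83 and 0.44 in wild type and 1.07 and 0.84 in knockout cells. Wild-type array 1 and knockout array 2 were nearly level, and the difference of 0.32 (SE 0.20, limma adjusted p = 0.555) was 0.12 without wild-type array 2. A second Psme4 probe gave 0.28. Psmf1 (PI31), named as a proteasome inhibitor, read 1.38 and 1.54 in wild type and 1.53 and 1.92 in knockout cells, with overlap (difference 0.26, SE 0.18, limma adjusted p = 0.593). Without knockout array 2 the Psmf1 difference was 0.07.

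The prefix-only gene Psmc3ip read 0.63 and 0.84 in wild type and 0.83 and 0.68 in knockout cells (difference 0.03, limma adjusted p = 0.948). Of 12 members with several tested probes, 4 had probes whose differences were of opposite sign, and 14 of 60 tested probes spanned more genome than their own length in mm9 coordinates.

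Replicates of 1 genotype also shifted the constitutive genes together. Wild-type array 2 was above wild-type array 1 in 29 of 31 constitutive subunits (all genes: 60.2%), with a median of 0.17 against 0.05 over all tested genes. Knockout array 1 was above knockout array 2 in 25 of 31 (all genes: 64.1%), with a median of 0.15 against 0.09 over all genes. Both medians were larger than the difference of 0.03 between genotypes. Under median scaling the counts were 18 and 18 of 31, with medians of 0.02 and 0.03 against -0.10 and -0.03 over all genes. After the surface correction of knockout array 1 the second count was 21 of 31, with a median of 0.07 against 0.02 over all genes.

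Genes that supply or regulate the proteasome gave few differences. Of 31 such genes, 0 passed an unadjusted p of 0.05 in either direction (all tested genes: 11.4%), and the median difference was 0.02. Pomp, the maturation factor of new 20S cores, read 5.17 and 5.43 in wild type and 5.38 and 5.26 in knockout cells (difference 0.02). Zfand5, a proteasome-binding protein, had the highest difference, 0.29 (SE 0.14, limma adjusted p = 0.499). Nfe2l2 (NRF2), which acts through the antioxidant response element, was at 0.23 and Nfe2l1 at 0.04. Hspa4, a chaperone of the heat shock protein family, was low on 1 array: it read 5.68 and 5.67 in wild type and 2.80 and 5.65 in knockout cells (difference -1.45, SE 0.99, limma adjusted p = 0.584). Its probe lies in the corner blocks, and without knockout array 1 the difference was -0.02.

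Interferon-gamma and antigen-processing genes, the programme that induces and works with the immunoproteasome, gave values in both directions. Of 29 tested, 2 had higher values (all genes: 7.23%) and 1 had a lower value (all genes: 4.13%) at an unadjusted p below 0.05, and the median difference was -0.17. Cxcl10, an interferon-induced chemokine, read -1.96 and -1.84 in wild type and -2.79 and -3.51 in knockout cells (difference -1.25, SE 0.28, limma adjusted p = 0.329). Ciita, the activator of MHC class II genes, was higher by 0.58 (SE 0.19, limma adjusted p = 0.411), and Cxcl9 by 0.44 (SE 0.12, limma adjusted p = 0.374). The lowest difference was that of Gbp6, an interferon-induced GTPase whose probe lies in a corner block: -2.02, or -0.56 without knockout array 1.

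Ifng itself read 1.82 and 2.90 in wild type and 3.36 and 3.13 in knockout cells (difference 0.89, SE 0.40, limma adjusted p = 0.479), with wild-type array 1 standing lowest. That was the highest difference of the list, and it was 0.35 without wild-type array 1. Irf1, an interferon-induced transcription factor, was at -0.18 and Nlrc5, the activator of MHC class I genes, at -0.39 (SE 0.16, limma adjusted p = 0.459). B2m, the light chain of MHC class I, differed by 0.02.

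The neighbours of Psmb8 and Psmb9 in the MHC did not move with them on every array. Tap1, which shares the short segment printed above with Psmb9, read 3.05 and 3.005 in wild type and 3.12 and 4.03 in knockout cells (difference 0.55, SE 0.34, limma adjusted p = 0.555). Tap2 read 4.40 and 4.74 in wild type and 4.76 and 5.51 in knockout cells (difference 0.56, SE 0.31, limma adjusted p = 0.525). Knockout array 2 was the highest array for both, and without it the differences were 0.09 and 0.19. Psmb8 and Psmb9 read 5.89 and 6.27 on that array, close to knockout array 1. On chromosome 14, Psme1 was at -0.12 and Psme2 at -0.22. Of the genes between and beside them, Emc9, of an endoplasmic reticulum membrane complex, was at 0.02 with overlapping groups. Rnf31, a ubiquitin ligase, was at -0.12 and Irf9, an interferon response factor, at -0.27. Both had knockout values wholly below wild-type values (all genes: 22.4%).

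Markers of other cells that a CD4+ sort can hold differed in part between genotypes without passing the adjusted threshold, and their part in the differences above was not tested. Of 7 tested markers of CD8 T, NK and gamma-delta T cells (10 listed), 3 (Cd8a, Klra8 and Fcer1g) had higher values at an unadjusted p below 0.05 (all genes: 7.23%). At that threshold 0 had lower values (all genes: 4.13%). At any p, 3 were higher and 4 lower, with Klrd1 the lowest at -0.47 and without overlap. The log2 of their summed signal was 4.11 and 4.36 in wild type and 3.76 and 4.08 in knockout cells. Most of it came from Klrd1, at 3.90 and 4.20 in wild type and 3.39 and 3.77 in knockout cells. Of 7 tested B cell markers (8 listed), 1 (Cd79b) was higher at an unadjusted p below 0.05 (all genes: 7.23%). At that threshold 2 (Ebf1 and Cd22) were lower (all genes: 4.13%). The Cd79b and Cd22 probes lie in the corner blocks. At any p, 5 B cell markers were higher and 2 lower. Their summed levels were 2.004 and 1.61 in wild type and 2.16 and 2.30 in knockout cells. Of 11 macrophage and dendritic cell markers, 2 (Cd74 and Flt3) were higher at an unadjusted p below 0.05 (all genes: 7.23%) and 0 lower (all genes: 4.13%). At any p, 9 of the 11 were higher and 2 lower. Knockout values lay wholly above for 5 (all genes: 25.4%) and wholly below for 1 (all genes: 22.4%). Their summed levels were 6.60 and 6.52 in wild type and 6.55 and 6.70 in knockout cells. Ms4a1, Klrb1c and Ncr1 were not well above background. Among the 9 pan T cell markers, 0 passed an unadjusted p of 0.05 in either direction (all genes: 11.4%). At any p, 1 was higher and 8 lower. Their summed levels were 9.73 and 9.82 in wild type and 9.69 and 9.69 in knockout cells.

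Signal quality was similar across arrays: 63.5% to 69.8% of spots were well above background and 0 member spots of 71 were saturated. Knockout array 1 was the least even, with a fitted surface SD of 0.157 against 0.0498 to 0.0557 on the others, and division by that surface, done at 100% of spots above background on the other arrays, had been done at 0.799% of its spots. Per the file headers all arrays were on the same slide, with wild-type and knockout arrays in different rows of that slide, so position on the slide and genotype cannot be told apart. The number of arrays, 2 per genotype, limits the precision: the median SE over the members was 0.15.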

How the data were processed

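Scans were processed in Agilent Feature Extraction, version 10.5.1.1, per the submitters' processing notes. The authors deposited, per the file headers, a processed signal (a linear intensity after background subtraction) and a fitted surface (a linear ratio), and a series matrix of log2 values, which equalled log2 of the processed signal plus 1 constant per array, within 0.001 for 99.4% to 99.5% of probes. The median of each matrix column was 5.54. Probe coordinates are mm9, per the files; exon and UTR annotation was not used here.

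The processed intensity was taken as log2 minus each array's 75th percentile over non-control probes. Outlier spots were left out and spots of a probe averaged. Probes needed to be well above background on both wild-type or both knockout arrays to be tested, and the brightest probe stood for a gene. The test was lmFit and eBayes of limma 3.58.1 under R 4.3.3 (2 residual plus 2.16 prior degrees of freedom), with Benjamini-Hochberg adjustment over 19151 genes. The fit was tested on simulated data. Members and lists were chosen with earlier results of these data known. Every member could be named; full values were given for the 5 inducible genes, their 4 counterparts, members with an unadjusted p under 0.05 and the highest and lowest of each role, and Psmd3, Psmd8, Psmb2, Psmg2, Psmg3 and genes beside members were added after their values were seen. Of the other lists, genes with an unadjusted p under 0.05 and the highest and lowest difference were named, except items not reported here, and Pomp, Nfe2l1, Nfe2l2, Hspa4, Irf1, Nlrc5 and B2m were added after their values were seen. In alternatives, 15 other settings were applied to each result.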

Additional observations from a re-analysis of the deposited data

How the results depend on the processing

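Over all genes 0 calls were made in every setting with 4 arrays, and 0 to 50 with 1 array left out. Members higher at an unadjusted p under 0.05 were 0 of 47 as reported, 1 under normexp, 1 with an intensity trend in the prior and 0 to 2 with 1 array left out; members lower were 1 as reported, 2 under median scaling, the series matrix and the trend, and 0 to 1 with 1 array left out. Replicate numbers did not pair the arrays (r = -0.0009 across genes between replicate differences of the genotypes), and with the replicate block 1 member was higher and 1 lower. The median of the immunoproteasome genes was -0.25 under median scaling and with the matrix, -0.15 under normexp and -0.17 to -0.063 with 1 array left out. The constitutive median was -0.13 under median scaling and with the matrix. The inducible minus constitutive contrast was -0.083 after correction of knockout array 1. Median scaling moved the share of higher among all genes with an unadjusted p under 0.05 from 63.7% to 24.9%, and quantile scaling to 51.6%.

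Alternatives gene by gene were computed for genes given values of their own in the text, so other members can reverse too. Among those genes, signs reversed for 15 under median scaling and with the matrix (matrix value the same to 2 digits): Psma6 -0.041, Psmb2 -0.081, Psmb4 -0.14, Psmb5 -0.12, Psmb6 -0.0035, Psmb7 -0.073, Psmc3ip -0.13, Psmd9 -0.076, Psmg1 -0.071, B2m -0.14, Emc9 -0.14, Nfe2l1 -0.12, Pomp -0.14, Sirt3 -0.0017 and Tubb2a -0.13. Among the same genes, correction of knockout array 1 reversed Psmb2 (-0.015), Psmb4 (-0.045), Psme2 (0.12), Psmg1 (-0.014), Psmg3 (0.077), Pomp (-0.014), B2m (-0.0090), Emc9 (-0.016) and Cd22 (0.071). Other reversals were Nfe2l1 under quantile scaling (-0.025), B2m (-0.046) and Emc9 (-0.012) under normexp, and Pomp by the mean of its probes (-0.040). With 1 array left out the range spanned 0 for Psmb10 (-0.25 to 0.17), Psmb4 (-0.14 to 0.18), Psmb5 (-0.10 to 0.18), Psmb9 (-0.099 to 0.017), Psmc3ip (-0.079 to 0.13), Psmc5 (-0.18 to 0.037), Psmd10 (-0.17 to 0.063), Psmd3 (-0.073 to 0.51), Psmd9 (-0.011 to 0.18), Psmg1 (-0.039 to 0.22), Psmg2 (-0.28 to 0.030), B2m (-0.021 to 0.065), Emc9 (-0.090 to 0.12), Irf1 (-0.38 to 0.031), Nfe2l1 (-0.094 to 0.18) and Pomp (-0.11 to 0.15). The cause of these changes was not tested. Without knockout array 2, Gbp6, in a corner block, was at -3.48, with knockout array 1 alone in its group. Psmb8, Psme1, Psme3, Psmg4, Psmd7 and Psmd13 kept their sign in every setting that gave them a value. An array left out leaves 1 sample in a group, which is assumed to vary like the others.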

Other observations

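Psmg4 and its neighbour on chromosome 13, the tubulin gene Tubb2b, both had lower values in knockout cells. Tubb2b read 1.27 and 1.16 in wild type and 0.43 and 0.78 in knockout cells, without overlap (difference -0.61, SE 0.17, limma unadjusted p = 0.021, adjusted p = 0.373). The next gene, Tubb2a, read 2.001 and 2.03 in wild type and 2.05 and 2.06 in knockout cells (difference 0.03). These neighbours were looked up after the Psmg4 value was seen. In the MHC, H2-DMb1, a class II peptide loader near Psmb9, read 2.01 and 1.91 in wild type and 2.42 and 2.50 in knockout cells (difference 0.50, SE 0.12, limma unadjusted p = 0.014, adjusted p = 0.337). Beside Psmd13, Sirt3 had a difference of 0.16 and Ric8a one of -0.17.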
